A study of Mus musculus with 6 samples.

Results

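Collagen genes were read out of a table of raw RNA sequencing counts by their symbols, as every gene named Col, a number, a and a number. This gave 44 genes of the 27098 in the table: 11 fibrillar collagens, 8 collagens of basement membranes and 25 others. The samples were ovaries of newborn mice taken 3 days after birth and kept in DMEM/F12 medium with antibiotics. Medium with 2% platelet-rich plasma (PRP), blood plasma in which platelets, which release growth factors, are concentrated, was given for 2 h to 3 samples, and medium alone to 3 controls. The series text calls the PRP human and thrombin-activated, whereas the sample labels say PRP, and no control with thrombin or other plasma was used here. Replicates are numbered 1 to 3 in each group, and their origin (animal, litter or culture) is not labelled. The p-values therefore describe only how much these samples vary, which may be technical. These are whole organs, in which fewer cells of a type and less RNA per cell cannot be told apart.

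Collagens are secreted proteins of 3 chains wound into a triple helix, in which glycine takes the first of each 3 residues. Fibrillar collagens assemble into the cross-striated fibrils of connective tissue, type IV collagen forms the sheet-like network of basement membranes, and the remaining types decorate fibrils, build finer filaments and networks or span the cell membrane. In the neonatal ovary, stromal cells deposit the interstitial collagens, and a basement membrane encloses each primordial follicle. The series text asks whether and how PRP promotes the activation of these dormant follicles.

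Each glycine is encoded by a GGN codon, so the repeat can be read in the genes. The exons below, shown because they carry the repeat that defines the family, are the first of exactly 54 bases with a GGN codon at the first of each 3 codons in 6 genes described here. They are written 5′ to 3′, with capitals for the GGN codons that stand first of each 3 codons, and come from GENCODE vM21 transcripts and GRCm38 coordinates.
Col1a1, exon 8 of 51, chr11:94939904-94939957, + strand: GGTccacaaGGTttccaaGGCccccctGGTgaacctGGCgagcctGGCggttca
Col1a2, exon 8 of 52, chr6:4515481-4515534, + strand: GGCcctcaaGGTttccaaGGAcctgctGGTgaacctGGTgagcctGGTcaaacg
Col3a1, exon 6 of 51, chr1:45325360-45325413, + strand: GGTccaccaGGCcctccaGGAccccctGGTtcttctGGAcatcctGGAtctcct
Col5a2, exon 6 of 54, chr1:45434892-45434945, - strand: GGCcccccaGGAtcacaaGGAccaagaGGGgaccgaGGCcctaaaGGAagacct
Col6a1, exon 9 of 35, chr10:76719623-76719676, - strand: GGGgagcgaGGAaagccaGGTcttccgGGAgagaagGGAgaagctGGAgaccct
Col4a1, exon 7 of 52, chr8:11245211-11245264, - strand: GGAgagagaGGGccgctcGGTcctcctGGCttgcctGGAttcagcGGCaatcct
Each holds 6 GGN codons at that step, and Col1a1 has a further GGN codon off it, left in lower case. The Col1a1 and Col1a2 exons were identical at 42 of 54 bases, and those of Col1a1 and Col4a1 at 25. Over all pairs the lowest value was 23, for Col5a2 and Col4a1. The first 2 bases of the 6 GGN codons match in every pair by the way the exons were chosen. The exons were not aligned as counterparts.

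Exon lengths were compared between the classes. Of 627 internal coding exons of the 11 fibrillar genes, 305 (48.6%) were exactly 54 bases long and 83.9% were a multiple of 9 bases. In the 6 type IV genes 12 of 284 such exons (4.23%) had 54 bases and 47.2% a multiple of 9. In the 25 other collagens the shares were 15.9% and 57.6%, and in all other protein-coding genes with a transcript 0.45% and 13.7%. The classes overlapped by gene: 54-base exons made up 46.7% of those of Col9a2 and Col9a3, against 42.9% in Col1a1, the lowest of the fibrillar genes. Despite this repeat, Col6a5 and Col6a6 were the only 2 members of the family to share a stretch of 50 bases with each other (322 of the 9240 stretches in Col6a5), so reads could be split between these near-identical parts. Stretches shared with genes outside the family covered at most 6.17% of a member, in Col9a3. Spans of other genes overlap those of Col4a1, Col4a2, Col4a3, Col4a4, Col4a6, Col5a1, Col9a3, Col10a1, Col13a1, Col14a1, Col15a1, Col16a1, Col27a1, Col28a1 and Col2a1, and since the use of strand in counting is not given in the sources used here, their values are uncertain to that extent. Collagen transcripts that could be tested were longer than those of all genes tested, with medians of 5794 and 2865 bases, and richer in G and C, with medians of 56.0% and 50.3%.

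Library totals were 36037111 to 36568367 counts with PRP and 35568000 to 35825931 counts in control. Collagen transcripts took 1.82%, 1.59% and 1.82% of all counts in PRP libraries 1 to 3 and 1.59%, 1.52% and 1.79% in control libraries 1 to 3. The means were 1.74% ± 0.13 with PRP and 1.63% ± 0.14 in control (SD, n = 3 each), a difference of 0.114 percentage points that ran from 0.0563 without control 2 to 0.192 without PRP 2 or control 3. In an exact permutation test of the 6 libraries the two-sided p was 0.3, where the smallest possible is 0.1, and the groups overlapped. The share was larger with PRP in 3 of 3 pairs of equal number, for which an exact sign-flip test gave p = 0.25, its smallest possible value. Fibrillar genes supplied 53.3% of all collagen counts, basement membrane genes 20.7% and the others 25.9%, and Col1a1, Col1a2 and Col3a1 alone 45%.

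**Figure D1:**
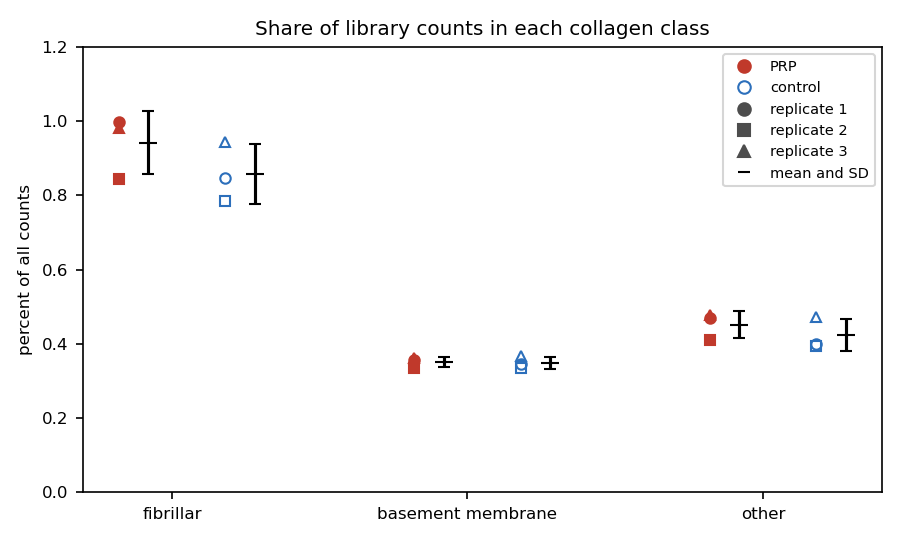
Percent of all counts per library in fibrillar, basement membrane and other collagen genes, PRP filled and control open, with marker shape giving the replicate number and bars the mean and SD (n = 3). Fibrillar shares averaged 0.942% with PRP and 0.859% in control, and basement membrane shares 0.351% and 0.349%.

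Split by class, fibrillar genes took 0.942% ± 0.085 of counts with PRP and 0.859% ± 0.080 in control (exact permutation p = 0.3, higher in 3 of 3 pairs). This difference ran from 0.0469 percentage points without control 2 to 0.133 without PRP 2. The basement membrane share was 0.351% ± 0.014 with PRP and 0.349% ± 0.017 in control (exact permutation p = 0.9, higher in 2 of 3 pairs). For the other collagens it was 0.452% ± 0.036 and 0.423% ± 0.044 in the same order (exact permutation p = 0.3, higher in 3 of 3 pairs). All are SD with n = 3, the groups overlapped in each class, and whether the classes differ in their response was not tested.

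To ask which collagen genes differ after 2 h of PRP, counts were fitted with edgeR across all 17475 genes that passed a filter on low counts, among them 42 of the 44 members (10 fibrillar, 8 basement membrane, 24 other). No collagen gene passed an adjusted p of 0.05 in the fit of 2 unpaired groups, where 0% of all genes tested passed, and 1 of 42 had an unadjusted p under 0.05 (3.19% of all genes tested), higher with PRP; 1.25% of all genes tested were higher and 1.93% lower at that level. DESeq2 and limma-voom also called 0 of 42, with 2 and 1 at that unadjusted level, beside 551 and 564 of 17475 genes. Libraries of the same number varied together, so a fit blocked on replicate number was set beside it. It too called 0 of 42 (0.12% of all genes tested), with a smallest adjusted p of 0.153 in Col3a1. At an unadjusted p under 0.05 the blocked fit placed 12 of 42 members higher with PRP, where 5.31% of all genes tested were, and 0 lower, where 5.91% were. Without number 1 that count was 4 higher and 2 lower, where 1397 of 17637 genes tested had such a p in either direction. Without number 2 it was 10 and 0 of 41 members, beside 1576 of 17653 genes. Without number 3 it was 16 and 0 of 42 members, beside 1758 of 17719 genes. The 12 were Col1a1, Col1a2, Col3a1, Col5a2, Col6a2, Col6a3, Col6a6, Col9a1, Col9a2, Col15a1, Col16a1 and Col26a1, chosen after their values were seen.

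Median log2 fold changes, PRP over control, were 0.11 for fibrillar, -0.02 for basement membrane and 0.10 for other collagens in the unpaired fit, and 0.05 for all 42, beside 0.00 for all genes tested. The log2 fold change was above 0 in 28 of 42 members, against 50.4% of all genes tested. With PRP, 14 members were higher in all 3 pairs and 6 were lower in all 3, where 16.8% and 16.3% of all genes tested were. Pair medians over the 42 were 0.12, 0.05 and -0.03 for numbers 1, 2 and 3. Single libraries moved these medians: that of all 42 was -0.03 without control 2, 0.17 without control 3, 0.15 without PRP 2 and 0.01 without PRP 3. Over all leave-outs of 1 library the median ran from 0.03 to 0.20 for fibrillar, -0.06 to 0.05 for basement membrane and -0.02 to 0.20 for other collagens.

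**Figure D2:**
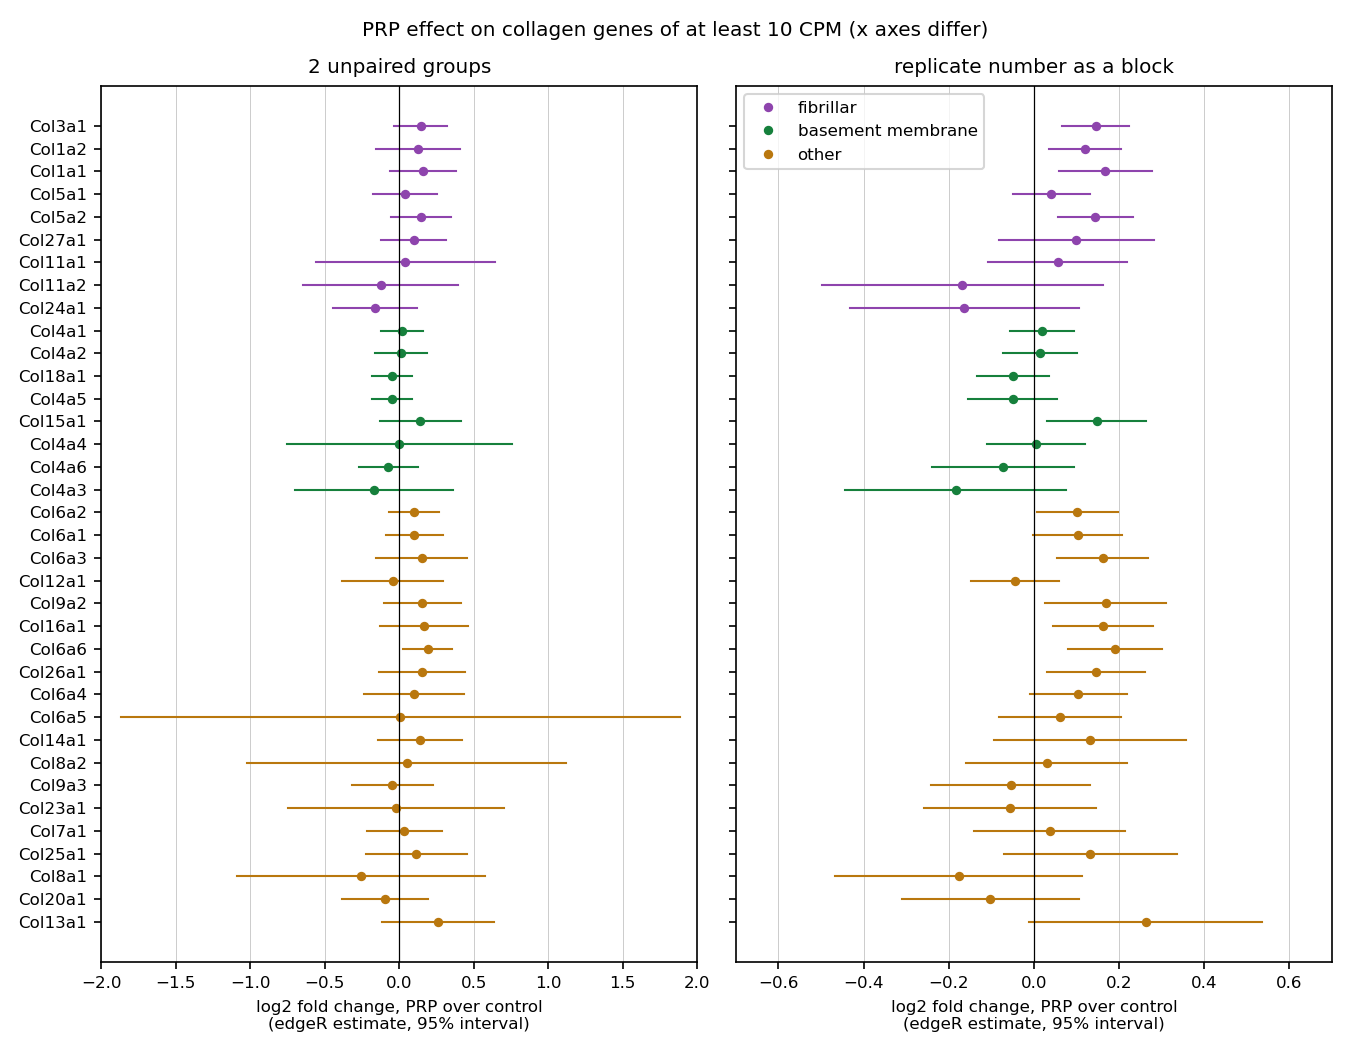
Log2 fold change of PRP over control with its 95% interval for the 36 collagen genes of at least 10 CPM, from the fit of 2 unpaired groups (left) and the fit blocked on number (right), coloured by class. In the left panel the interval of Col6a6 alone lies above 0, at 0.03 to 0.36, and on the right Col4a1 is centred at 0.02.

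Among the fibrillar collagens, the chains of types I and III were the most abundant. Values below are CPM, counts per 1000000 counts of the library after scaling by edgeR's trimmed-mean (TMM) factors, and fold changes are log2 values with SE from edgeR, with n = 3 per group throughout. Col3a1 (Entrez 12825, chr1:45311538-45349706, + strand), the single chain of type III collagen of pliable tissues, had 3411, 3032 and 3501 CPM in PRP libraries 1 to 3, against 2888, 2801 and 3310.0 CPM in control libraries 1 to 3. Every PRP library lay above the control of its number, yet control 3 lay above PRP 2, so the groups overlapped. Its mean was 3315 ± 249 CPM with PRP and 3000 ± 272 CPM in control (SD, n = 3), with a log2 fold change of 0.14 ± 0.08 (95% interval -0.03 to 0.32, adjusted p = 0.9998) without and 0.15 ± 0.04 (0.07 to 0.22, adjusted p = 0.153) with the block. With the block and a correction for GC content and length together it passed (adjusted p = 0.0485, log2 fold change 0.16), the 1 collagen call among 19 alternative settings, over which its fold change ran from 0.10 to 0.22.

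Type I collagen, the main fibril protein of most connective tissue, is built from a pair of Col1a1 chains and a single Col1a2 chain. Col1a1 (Entrez 12842, chr11:94936224-94953042, + strand) had 2172, 1927 and 2159 CPM in PRP libraries 1 to 3, against 1768, 1671 and 2159 CPM in control libraries 1 to 3. Its number 3 libraries were equal to 4 digits. Col1a2 (Entrez 12843, chr6:4505618-4541543, + strand) had 2807, 2139 and 2797 CPM in PRP libraries 1 to 3, against 2389, 2097 and 2612 CPM in control libraries 1 to 3. Number 2 was the lowest library of Col1a2 in both groups. Blocked log2 fold changes were 0.17 ± 0.05 for Col1a1 and 0.12 ± 0.04 for Col1a2 (adjusted p = 0.221 and 0.245), with intervals of 0.06 to 0.28 and 0.04 to 0.20. Per kilobase of transcript, counts of Col1a1 were 0.735 ± 0.067 times those of Col1a2 with PRP and 0.711 ± 0.040 times in control (SD, n = 3).

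Type V chains join type I fibrils and regulate their diameter. Col5a1 had 872, 762 and 883 CPM in PRP libraries 1 to 3, against 802, 727 and 925 CPM in control libraries 1 to 3, with a blocked log2 fold change of 0.04 ± 0.04 (interval -0.05 to 0.13). Col5a2, which neighbours Col3a1 on chromosome 1 at a distance of 24624 bases and on the other strand, had 438, 363 and 424 CPM in PRP libraries 1 to 3, against 393, 333 and 382 CPM in control libraries 1 to 3. Its pairs differed by 1.11-, 1.09- and 1.11-fold, the most even of the fibrillar chains named here, and its blocked log2 fold change was 0.14 ± 0.04 (adjusted p = 0.191). Col5a3 was scarce, with 3.57, 4.14 and 4.07 CPM with PRP and 2.34, 2.59 and 5.14 CPM in control, and control 3 exceeded every PRP library.

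Of the remaining fibrillar chains, Col27a1 had 94.2, 92.5 and 81.2 CPM in PRP libraries 1 to 3, against 89, 72.4 and 89.2 CPM in control libraries 1 to 3. Col11a1, a chain of the cartilage-type fibril collagen XI that other tissues also make, had 86.3, 57.4 and 83.2 CPM in PRP libraries 1 to 3, against 72.4, 53.1 and 95 CPM in control libraries 1 to 3. Number 2 was low in both groups, and the order within pairs was not the same in all 3. Col11a2 had 18.9, 9.71 and 12.5 CPM with PRP and 14.8, 13.3 and 16.7 CPM in control, the highest and the lowest value both lying in PRP libraries. Col24a1 had 9.75, 10.3 and 10.1 CPM with PRP and 11.2, 11.1 and 11.5 CPM in control and was the only member whose groups did not overlap, with all PRP libraries below all controls (4.87% of all genes tested) and no member the other way (4.34%). Its blocked log2 fold change was -0.16 ± 0.13 with an interval of -0.43 to 0.11. Col2a1, the main cartilage collagen, had 4 to 11 counts per library and was not tested.

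**Figure D3:**
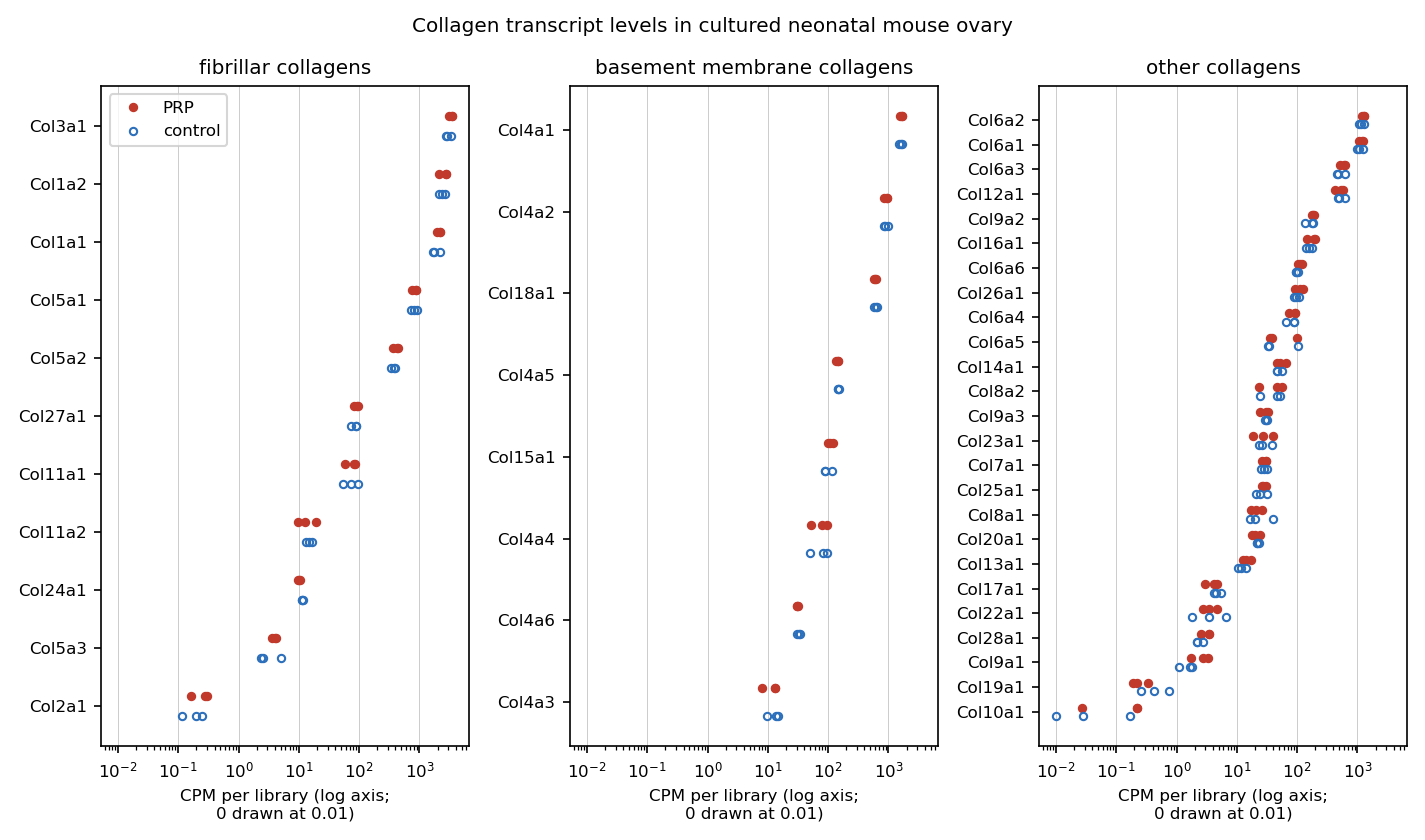
CPM of each of the 44 collagen genes in every library on a log axis, by class and in order of mean CPM, PRP filled above control open (1 control library of Col10a1 without counts is drawn at 0.01). CPM is not divided by transcript length, so genes of different length should not be ranked by it, and in 43 of 44 genes the ranges of PRP and control overlap.

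In the basement membrane class the main chains had log2 fold changes close to 0. Col4a1 and Col4a2 encode the chains of the type IV network found in nearly all basement membranes, and their spans overlap by 85 bases at their 5′ ends on chromosome 8, transcribed away from each other. Col4a1 (Entrez 12826, chr8:11198423-11312889, - strand) had 1649, 1547 and 1688 CPM in PRP libraries 1 to 3, against 1611, 1511 and 1698 CPM in control libraries 1 to 3. Col4a2 (Entrez 12827, chr8:11312805-11449287, + strand) had 946, 842 and 962 CPM in PRP libraries 1 to 3, against 881, 849 and 995 CPM in control libraries 1 to 3. Blocked intervals of the log2 fold change were -0.06 to 0.09 for Col4a1 and -0.07 to 0.10 for Col4a2, narrow beside those of most members. Per kilobase, Col4a1 counts were 1.73 ± 0.05 times those of Col4a2 with PRP and 1.73 ± 0.06 times in control (SD, n = 3).

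The other type IV chains form networks in specialised basement membranes such as that of the kidney glomerulus. Col4a3 and Col4a4 overlap by 114 bases on chromosome 1, and Col4a6 and Col4a5 lie 1274 bases apart on the X chromosome, again transcribed outwards. Col4a5 had 145, 134 and 147 CPM with PRP and 149, 144 and 148 CPM in control, and its partner Col4a6 30.5, 30.2 and 31.7 CPM with PRP and 32.8, 30.5 and 33.9 CPM in control. Both were lower with PRP in 3 of 3 pairs, by small amounts: the blocked log2 fold changes were -0.05 ± 0.05 and -0.07 ± 0.08, and neither passed (adjusted p = 0.772 and 0.794). Col4a4 had 79.3, 52 and 94.6 CPM with PRP and 81.4, 50.5 and 93.9 CPM in control. Replicate number 2 was lowest in both groups, and the number took 99.8% of this gene's variance of log2 CPM. Col4a3 had 13.2, 7.87 and 13.1 CPM with PRP and 13.9, 9.75 and 14.8 CPM in control, also with number 2 lowest, and a blocked log2 fold change of -0.18 ± 0.12.

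Types XV and XVIII are the multiplexins, which sit in basement membrane zones and carry heparan or chondroitin sulphate. Col18a1, whose C-terminal fragment is endostatin, had 569.9, 618 and 597 CPM in PRP libraries 1 to 3, against 586, 627 and 634 CPM in control libraries 1 to 3. It was lower with PRP in all 3 pairs, with a blocked log2 fold change of -0.05 ± 0.04 (interval -0.13 to 0.04). Col15a1 had 107, 99 and 121 CPM in PRP libraries 1 to 3, against 90.0, 90.0 and 117 CPM in control libraries 1 to 3, higher in all 3 pairs, with a blocked log2 fold change of 0.15 ± 0.06 (interval 0.03 to 0.26, adjusted p = 0.309). Neither passed. In this class 0 of 8 members passed in either fit, and 4 of 8 had a log2 fold change above 0.

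Type VI collagen forms beaded microfilaments at the border between basement membranes and fibrils, and all 6 of its genes had an unpaired log2 fold change above 0, as 50.4% of all genes tested did. Col6a5, at 0.01, took the other sign in 4 of 19 alternatives (-0.64 to 0.79), and Col6a4 in 1. Col6a1 had 1192, 1075 and 1243 CPM in PRP libraries 1 to 3, against 989, 1070.0 and 1215 CPM in control libraries 1 to 3. Col6a2 had 1276, 1179 and 1299 CPM in PRP libraries 1 to 3, against 1079, 1138 and 1288 CPM in control libraries 1 to 3. Col6a3, the chain with the longest globular part, had 592, 512 and 629.7 CPM in PRP libraries 1 to 3, against 483, 452 and 626 CPM in control libraries 1 to 3. Each was higher with PRP in all 3 pairs, most in number 1 (1.21-, 1.18- and 1.23-fold) and least in number 2 for Col6a1 and in number 3 for the other two. Blocked log2 fold changes were 0.10 ± 0.05, 0.10 ± 0.04 and 0.16 ± 0.05 for Col6a1, Col6a2 and Col6a3, and none passed (adjusted p = 0.449, 0.408 and 0.218). The per-kilobase ratio of Col6a1 to Col6a2 was 0.900 ± 0.022 with PRP and 0.899 ± 0.014 in control (SD, n = 3).

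Col6a6, Col6a5 and Col6a4 stand in tandem on chromosome 9, on the - strand and with 27823 and 27854 bases between neighbours. Col6a6 (Entrez 245026, chr9:105689417-105828246, - strand) had 121, 113 and 105 CPM in PRP libraries 1 to 3, against 105, 95.9 and 95.6 CPM in control libraries 1 to 3. The lowest PRP library (number 3, 104.8 CPM) lay just below the highest control (number 1, 104.9 CPM), so the groups overlapped. The pairs differed by 1.15-, 1.18- and 1.10-fold. It was the 1 member with an unadjusted p under 0.05 in the unpaired fit, at a log2 fold change of 0.19 ± 0.07 (interval 0.03 to 0.36, adjusted p = 0.9998), and its blocked adjusted p was 0.173. Col6a4 had 92.8, 73.2 and 92.3 CPM with PRP and 89.4, 64.3 and 87.7 CPM in control, higher in 3 of 3 pairs with a blocked log2 fold change of 0.10 ± 0.05. Col6a5, between them, had 35.9, 37.9 and 99.1 CPM with PRP and 34.3, 32.5 and 105 CPM in control: both number 3 libraries were high, and the treatment took 0.211% of its variance.

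The FACIT collagens bind to the surface of fibrils without forming fibrils themselves. Col12a1 had 529, 426 and 582 CPM in PRP libraries 1 to 3, against 490.4, 469 and 624 CPM in control libraries 1 to 3, with a blocked log2 fold change of -0.04 ± 0.05. Col14a1 had 47.1, 65 and 52.1 CPM with PRP and 46.8, 46.9 and 55.4 CPM in control, PRP 2 being the highest of the 6. Col16a1 had 199, 147 and 192 CPM in PRP libraries 1 to 3, against 159, 141 and 179 CPM in control libraries 1 to 3, higher in all 3 pairs (blocked log2 fold change 0.16 ± 0.06, adjusted p = 0.257). Type IX is best known from cartilage. Its chain Col9a2 had 192, 177 and 186 CPM in PRP libraries 1 to 3, against 186, 135 and 179 CPM in control libraries 1 to 3, where control 2 lay apart from the other 5 libraries, and Col9a3 33.1, 24.5 and 30.8 CPM with PRP and 30.4, 29 and 31.8 CPM in control. Col9a1 reached 3.32, 1.74 and 2.74 CPM with PRP and 1.65, 1.84 and 1.08 CPM in control, so that 1 of 3 pairs went the other way, and had a blocked log2 fold change of 0.76 ± 0.32 at an adjusted p of 0.389. Col20a1 had 24.1, 19.6 and 18 CPM with PRP and 23.1, 21.5 and 21.3 CPM in control. Col19a1 was at 0.192, 0.331 and 0.222 CPM with PRP and 0.418, 0.752 and 0.256 CPM in control, that is 7 to 27 counts per library, and Col22a1 ranged from 1.81 to 6.70 CPM.

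Of the network-forming chains, Col8a1 had 17.4, 20.8 and 26 CPM with PRP and 16.3, 20.4 and 40.1 CPM in control and Col8a2 56.6, 23.1 and 46.8 CPM with PRP and 45.5, 24.2 and 52.5 CPM in control. The type VIII chains did not share a pattern: Col8a1 was highest in control 3, and Col8a2 was low in both number 2 libraries. Col10a1, a marker of hypertrophic cartilage, had 0 to 8 counts and was not tested. Col7a1, the anchoring fibril chain beneath epithelia, had 30.8, 26.4 and 29.9 CPM with PRP and 28.3, 25.4 and 31.5 CPM in control. The transmembrane collagens were Col13a1 with 17.1, 12.4 and 14.2 CPM with PRP and 11.6, 10.5 and 14.3 CPM in control, Col23a1 with 27.1, 18.8 and 40.5 CPM with PRP and 26, 23.7 and 37.9 CPM in control and Col25a1 with 29.9, 27 and 26 CPM with PRP and 31.7, 21 and 23.8 CPM in control. Col17a1, which links epithelial cells to the basement membrane, ranged from 2.96 to 5.46 CPM. Col26a1, a short collagen found in the gonads of mice, had 126, 90.5 and 111 CPM with PRP and 109, 88.2 and 96.8 CPM in control, with a blocked log2 fold change of 0.15 ± 0.05 (adjusted p = 0.309). Col28a1 had 3.4, 3.48 and 2.58 CPM with PRP and 2.17, 2.7 and 2.19 CPM in control, higher in 3 of 3 pairs but with an interval of -0.11 to 0.94.

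Levels were also put on a scale per length. As CPM per kilobase of transcript over all 6 libraries, Col3a1 led with 567, ahead of Col1a2 with 463, Col1a1 with 333, Col6a2 with 306, Col6a1 with 276 and Col4a1 with 245. Among 16322 tested genes with a transcript length Col3a1 ranked 56, Col1a2 78 and Col1a1 119. Col4a2 (142), Col18a1 (108) and Col5a1 (98.6) followed, and 8 members lay under 1 CPM per kilobase.

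The replicate number took a larger part of the variance of collagen levels than PRP did in most tested members. Col6a6, Col9a1, Col24a1 and Col28a1 went the other way, with 62.7%, 52.35%, 89.1% and 58.9% taken by the treatment. The number's median share of the variance of log2 CPM was 68.6% over the 42 members and 55.7% over all genes tested. The treatment took a median of 15.3% and 11.3% in the same order. Equal spread among libraries would give averages of 40% for the number and 20% for the treatment. A median can lie below such an average, so these medians cannot be read against it. Number 2 held the lowest mean in 31 of 42 members, and number 3 the highest in 24. This order was not counted over all genes tested, so it cannot be called particular to collagens. Means over both groups of a number differed by up to 2.91-fold (Col6a5), 2.16-fold (Col8a2) and 1.96-fold (Col8a1) among members of at least 10 CPM.

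**Figure D4:**
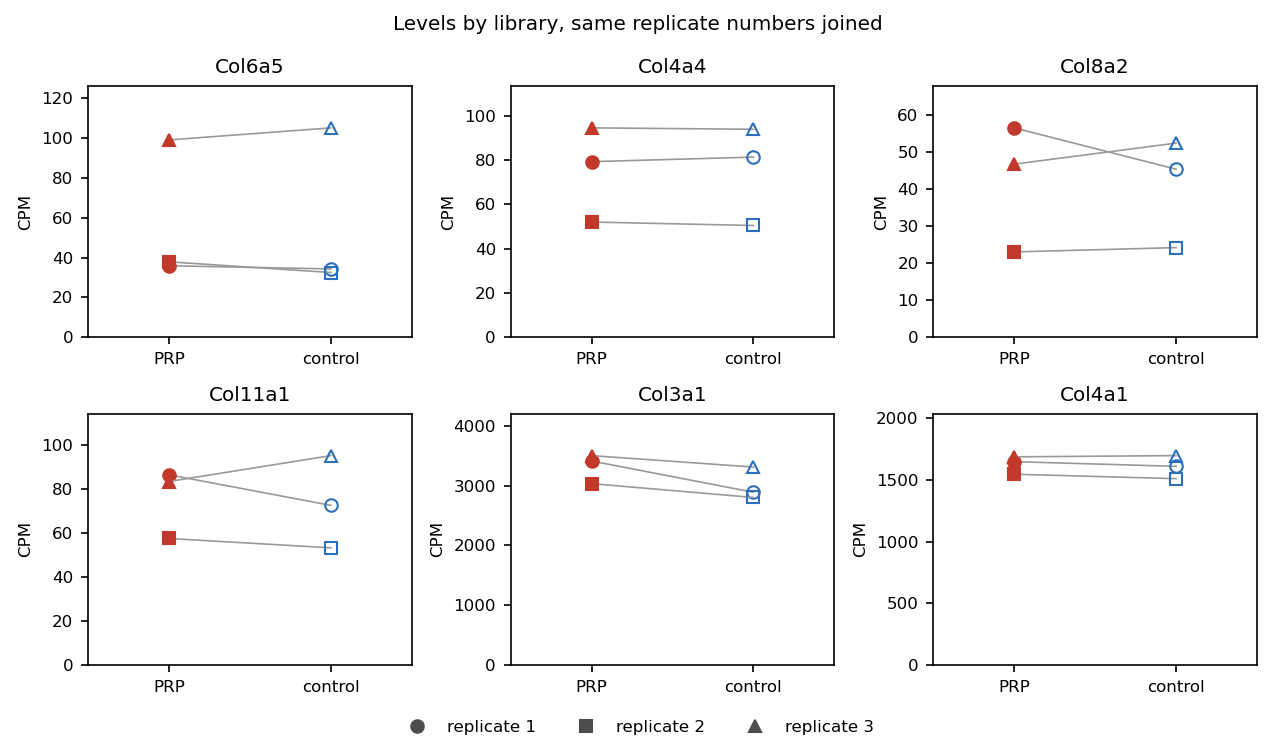
CPM of 6 collagen genes by library, with PRP and control libraries of the same replicate number joined and marker shape giving the number. Col6a5 lies at 99.1 CPM in PRP 3 and 105 CPM in control 3 and between 32.5 and 37.9 CPM in the other 4 libraries, while the lines of Col3a1 all slope down to control.

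Collagen makers and handlers were described from lists of genes, none of whose members passed in either edgeR fit. Of 22 genes for the synthesis and folding of collagen chains, all tested, 18 had a log2 fold change above 0, with a median of 0.08. The 3 with the smallest blocked p-values were Plod1, a lysyl hydroxylase, with 60.1 ± 6.4 CPM with PRP and 53.6 ± 6.3 CPM in control (SD, n = 3), Ppib, a prolyl isomerase of the endoplasmic reticulum, and Fkbp10, a collagen chaperone. Ppib had 277, 254 and 269 CPM in PRP libraries 1 to 3, against 247, 243 and 243 CPM in control libraries 1 to 3. Its groups did not overlap, as in 2 of the 22 genes and 4.34% of all genes tested. Fkbp10, the other of these 2, had 160.4, 151.6 and 168 CPM with PRP and 142, 145 and 151.6 CPM in control, a gap too small to show in these digits. Their blocked log2 fold changes were 0.17 ± 0.06, 0.13 ± 0.05 and 0.13 ± 0.05 for Plod1, Ppib and Fkbp10 (adjusted p = 0.288, 0.288 and 0.317).

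Of 14 processing and cross-linking genes 12 were tested, and 9 had a log2 fold change above 0. The lysyl oxidases Loxl1 and Loxl2 had blocked log2 fold changes of 0.18 ± 0.06 and 0.17 ± 0.05 (adjusted p = 0.211 for both), and Sparc, which binds collagen, 0.09 ± 0.04. Loxl2 had 102, 116 and 134 CPM with PRP and 95.8, 100.2 and 116 CPM in control. For the collagen receptors, 9 of 10 tested, the median log2 fold change was 0.00 and 4 were above 0. Mrc2, which takes up collagen, had 0.13 ± 0.05 with the block, and the integrin chains Itga2 and Itga1 -0.11 ± 0.11 and -0.08 ± 0.09. Of 6 collagenases and gelatinases 5 were tested. Mmp14, a membrane-bound collagenase, had 498, 429.8 and 485 CPM in PRP libraries 1 to 3, against 449, 374 and 449.6 CPM in control libraries 1 to 3, with a blocked log2 fold change of 0.15 ± 0.04 (adjusted p = 0.173). Mmp2 and Ctsk had 0.13 ± 0.04 and 0.60 ± 0.24.

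Markers of ovarian cell types were detected in each list of 8, with none at 0 in all libraries. Summed levels of stromal fibroblast markers were 1377 to 1865 CPM with PRP and 1296 to 1714 CPM in control, and those of mural cell markers 377 to 474 CPM and 332 to 474 CPM in the same order. The sums of stromal, oocyte, surface epithelium and macrophage markers were higher with PRP in all 3 pairs, as the fibrillar share was, and the mural sum in numbers 1 and 2. The endothelial sum was higher with PRP in numbers 1 and 3 only, the granulosa sum in numbers 2 and 3 only and the erythroid sum in number 1 only. Of the stromal markers 7 of 8 had a log2 fold change above 0 (median 0.21), and of the mural markers 7 of 8 (median 0.16), and 0 of 16 passed in either edgeR fit. At an unadjusted p under 0.05 the blocked fit placed 6 of 8 stromal and 4 of 8 mural markers higher with PRP and 0 lower. Of all genes tested, 5.31% were higher and 5.91% lower at that level. The smallest blocked adjusted p was 0.0642 among the stromal and 0.153 among the mural markers. Their part in the collagen values was not tested. Except for the surface epithelium, the summed levels of each list overlapped between the groups, and the oocyte genes Zp2 and Zp3 passed in the blocked edgeR fit (log2 fold changes of 0.23 and 0.24, adjusted p = 0.0331 and 0.0411). Ovarian surface epithelium markers summed to 297 to 346 CPM with PRP and 273 to 289 CPM in control, without overlap, and Krt19 passed among them with the block (log2 fold change 0.36, adjusted p = 0.0331). With the block 0.12% of all genes tested passed in edgeR and none in limma-voom, so these 3 marker calls did not hold there. Control 3 stood apart in erythroid markers, with 1571 CPM against 109 to 225 CPM in the other 5 libraries. Without that library the unpaired fit had 8 of 42 collagen genes at an unadjusted p under 0.05, all higher with PRP. At that level were 655 of 18030 genes tested. With all libraries these counts were 1 of 42 and 557 of 17475. Leaving out PRP 2 instead gave 6 of 42, all higher with PRP, and 881 of 17992 genes. Leaving out PRP 1 gave 1 collagen gene, lower with PRP, and 284 of 17989 genes. Leaving out PRP 3, control 1 or control 2 gave 1, 2 and 1 collagen genes, all higher with PRP. In the same order, 446 of 18016, 619 of 18011 and 548 of 18031 genes tested were at that level. No gene of any kind passed the adjusted threshold in these unpaired fits, and the part of the erythroid signal was not tested.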

How the data were processed

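The samples were 6 libraries of cultured mouse ovary, 3 with PRP and 3 without. The authors deposited raw counts per gene symbol, whole numbers that sum to 35568000 to 36568367 per library, and a table of their own comparison. The pathway annotation was read from the table of counts, and the authors' comparison was not used. Reads were placed on the mouse build GRCm38 (mm10), per the submitters' processing notes; which aligner, counter, strand setting or annotation was used is not given in the sources here. Columns were matched to samples by title; 1 column spells PRP 3 with its letters in another order. Gene coordinates are from RefSeq (GRCm38.p6), and transcripts and exons from GENCODE vM21 (26146 and 21542 of 27098 genes matched, and all 44 members).

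Counts were filtered with filterByExpr, scaled by TMM and fitted with edgeR 4.0.16 in R 4.3.3 (quasi-likelihood, robust), with Benjamini-Hochberg adjustment over 17475 genes and a threshold of 0.05. SE is the fold change divided by the root of F, and intervals are 95%. Members averaging at least 10 CPM (36), and the 3 lowest tested of each class, are given in every library. The deviations of same-numbered libraries from their group means correlated over 11165 genes (r = 0.49, 0.65 and 0.57 for numbers 1, 2 and 3), and those of all other pairs at -0.016 or below. The labels do not state this pairing, so the blocked fit stands beside the unpaired one. No 2 libraries of a group agreed within counting noise (chi-square over degrees of freedom between 13.9 and 31.8). Alternatives were DESeq2 1.42.0, limma-voom (limma 3.58.1), other scaling and filters, the block, a GC and length correction, and leaving out libraries. The members and gene lists were chosen with earlier results of these data known.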

Additional observations from a re-analysis of the deposited data

How the results depend on the processing

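Over 19 alternatives, the count of all genes past the threshold, 0 in the unpaired fit, was 21 with the replicate number as a block, 17 with the block and a GC and length correction, 1 to 19 with the block and 1 number left out, and 0 in limma-voom with the same block. The count of collagen genes was 0 in every setting but the block with GC and length correction, where it was 1: Col3a1, with a log2 fold change of 0.16 (adjusted p = 0.0485). The cause was not tested. The block alone changed no collagen call. The difference in the basement membrane share of counts, 0.00183 percentage points, ran from -0.00559 to 0.0109 when 1 library was left out, and was below 0 without PRP 1 (-0.00114), PRP 3 (-0.00319) or control 2 (-0.00559). The shares of the other classes kept their sign in each alternative run. For the 40 named members, 757 of 758 alternative fold changes stayed on the same side of the threshold, and 48 had the other sign without passing it; Col19a1 gave no value under the stricter filter or with the block and without number 2. With 3 libraries a group the permutation tests cannot give a p under 0.1, so they could not reach 0.05.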

Other observations

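Col6a5 stood apart by replicate number rather than by treatment. It had 99.1 CPM in PRP 3 and 105 CPM in control 3, and 32.5 to 37.9 CPM in the other 4 libraries, so the lower of the number 3 libraries was 2.62-fold above the highest of the rest. Among 10721 genes of at least 10 CPM only Cwc22, a splicing factor, showed a larger gap (7.67-fold). Its tandem neighbours did not show the gap: Col6a6 had 105 CPM in PRP 3 and 95.6 CPM in control 3, the lowest of each group, and Col6a4 had 92.3 and 87.7 CPM in the same libraries, within the range of the rest of their groups. These genes were chosen after their values were seen.

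The 18 collagen genes that the authors' deposited table assigns to the PI3K-Akt pathway, 17 of them tested, had a median log2 fold change of 0.10, with 13 above 0. For the other 25 tested members the median was 0.04, with 15 above 0. Of all genes tested 50.4% were above 0. The median of all 42 members ran from -0.03 without control 2 to 0.17 without control 3. Whether these sets differ was not tested. None of either set passed in the unpaired or the blocked edgeR fit.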
